A study of Mus musculus with 2 samples.

Results

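The resistin-like genes Retn, Retnla, Retnlb and Retnlg and the arginase gene Arg1 were examined in mouse lung cells sorted for an SPC/GFP reporter and for EpCAM. These 5 genes, of 19505 genes named on the array, were taken by their gene symbols, and each had 1 probe. The set was chosen by the log2 signals of its genes on the smoke and air arrays, so their differences are given as a description. A control sample came from mice kept in air and a second sample from smoke-exposed mice, both after 3 months. SPC commonly stands for surfactant protein C, the product that marks alveolar type 2 cells, and EpCAM is an adhesion protein of epithelial cells. The kind and dose of smoke, the strain, age and sex of the mice, the construction of the reporter and how many animals were pooled, if any, were not given in the sources used here. RNA from each sample was hybridised to 1 Clariom S Mouse array, so no difference has a replicate check or an error between samples, and each compares 2 samples, not the conditions.

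Resistin and the resistin-like molecules (RELM) are small secreted proteins with a conserved cysteine-rich C-terminal part. In the mouse, Retn encodes resistin, a hormone released mainly by white adipocytes. Retnla encodes RELM-alpha (FIZZ1), which is made in the lung by alveolar and airway epithelium and by macrophages, and which the cytokines IL-4 and IL-13 induce through the transcription factor STAT6 together with C/EBP factors. Retnlb encodes RELM-beta, best known from intestinal goblet cells, and Retnlg encodes RELM-gamma, made in bone marrow and neutrophils. Arg1 encodes the cytosolic arginase that splits arginine into ornithine and urea. Together with Retnla it is a standard mark of macrophages activated by IL-4 and IL-13.

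Retnlb, Retnla and Retnlg stand next to each other in this order on chromosome 16, while Retn lies on chromosome 8 and Arg1 on chromosome 10 (RefSeq gene table, assembly GRCm38.p6). Promoter windows running from 250 bases before to 50 bases after the RefSeq start were at hand for 3 of the 5 genes. Retnla and Retnlg are shown because they are neighbours in the cluster with unlike differences, and Retn because it is the relative outside the cluster. All 3 windows are on the plus strand of GRCm38.p6, at chr16:48842359-48842658 for Retnla, chr16:48872358-48872657 for Retnlg and chr8:3655520-3655819 for Retn. Capitals mark matches, on either strand, to the STAT6 motif, which is TTC and GAA with any 4 bases between them, or to TTGCNNAA, a pattern bound by C/EBP factors.
Retnla: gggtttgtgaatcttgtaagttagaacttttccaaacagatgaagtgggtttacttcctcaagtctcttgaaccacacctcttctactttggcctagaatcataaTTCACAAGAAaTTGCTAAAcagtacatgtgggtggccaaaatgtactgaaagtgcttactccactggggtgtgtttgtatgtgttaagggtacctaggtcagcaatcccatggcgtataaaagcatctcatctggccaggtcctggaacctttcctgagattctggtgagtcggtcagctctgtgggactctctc
Retnlg: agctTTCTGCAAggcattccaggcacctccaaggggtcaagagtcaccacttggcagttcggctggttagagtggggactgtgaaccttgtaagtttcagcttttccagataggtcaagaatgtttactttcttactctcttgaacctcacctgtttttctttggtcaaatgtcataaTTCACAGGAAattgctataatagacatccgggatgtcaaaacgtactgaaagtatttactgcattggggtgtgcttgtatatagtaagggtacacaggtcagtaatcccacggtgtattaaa
Retn: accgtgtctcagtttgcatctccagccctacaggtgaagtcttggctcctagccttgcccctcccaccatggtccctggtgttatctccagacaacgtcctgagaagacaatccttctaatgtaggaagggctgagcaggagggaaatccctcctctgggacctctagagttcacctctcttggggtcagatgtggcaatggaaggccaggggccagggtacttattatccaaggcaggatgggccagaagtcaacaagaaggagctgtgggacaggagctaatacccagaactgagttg

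The Retnla window held 1 match to the STAT6 motif at positions -145 to -136 and 1 match to TTGCNNAA at positions -134 to -127, counted from the start, with a single base between them. The Retnlg window held 1 match to each as well, at positions -72 to -63 and, on the minus strand, at -246 to -239. The Retn window held no match to either, and no window of the 3 matched TTCNNNGAA, the shorter spacing used by other STAT factors. Of 32851 promoter windows of the same length, 6.95% matched the STAT6 motif, 10.8% matched TTGCNNAA, 8.30% matched TTCNNNGAA and 0.840% matched both of the first pair. A match is a description of letters and not evidence of binding.

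The Retnla and Retnlg windows were alike over most of their length. A local alignment paired 220 bases, of which 175 (79.5%) were identical, and it ran from -245 to -24 in Retnla and from -171 to 50 in Retnlg. By alignment score Retnlg was the closest of 32850 other windows to Retnla, and Retnla the closest to Retnlg. Retn, by contrast, ranked 11609th for Retnla. The STAT6 motif matches of Retnla and Retnlg lay on each other in this alignment. The bases of both genes from that match to the end of Retnla's C/EBP match are set side by side, again with matches in capitals. They are shown because both genes match the first motif here and only Retnla matches the second.
Retnla: TTCACAAGAAaTTGCTAAA
Retnlg: TTCACAGGAAattgctataa
Over this stretch Retnlg had 1 substituted base and 1 added base, and the bases aligned to the C/EBP match of Retnla no longer matched TTGCNNAA. The STAT6 motif followed after any 1 base by TTGCNNAA occurred in 1 of the 32851 windows, that of Retnla. This pattern was taken from the Retnla sequence itself after it had been seen.

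Retnla was the member with the largest difference. Its log2 signal was 12.36 in the air sample and 7.07 in the smoke sample. The smoke signal was thus far below that in air. It still lay 2.5 above the level filter of 4.57, the median of all deposited values. A gene with the signals of both arrays under this filter was treated as too low to call. The log2 difference of Retnla, smoke minus air, was -5.29, a 39.1-fold lower signal in smoke.

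This difference stood apart from those of genes of like level. Among the 200 genes nearest to Retnla in mean signal, differences ran from -1.70, for the matrix proteoglycan gene Prelp, to 1.88, for the NF-kB feedback inhibitor Tnfaip3. The central 95% lay between -0.73 and 1.06 and the robust SD, a scaled median absolute deviation, was 0.44. Retnla was lower than all 200. The same held when genes were matched on the air signal alone: the 200 genes with air signals of 12.07 to 12.65 had smoke signals of 11.19 to 13.45, while Retnla was at 7.07. Such a spread over genes mixes measurement error with real differences and does not stand in for replicates.

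Above the level filter, 258 of 10419 genes (2.48%) were at least 2-fold lower in smoke and 410 (3.94%) at least 2-fold higher. Of the 5 members, 3 were above the filter on at least 1 array. Retnla and Arg1 were at least 2-fold lower, none was at least 2-fold higher, and Retnlg was within 2-fold. Because the members were picked with these differences in view, their count is not to be read against those shares. In the order of differences above the filter Retnla was the lowest of the 10419 genes. The genes directly above Retnla in that order were Npas2 and Arntl, transcription factors of the circadian clock, Ccnjl, a cyclin J-like gene, Clca1, which goblet cells secrete, and Avpr1a, a receptor of vasopressin, with differences of -3.89, -3.62, -3.40, -2.91 and -2.53. The sample titles give no time of day of collection, and the part of such a time in these differences was not tested.

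**Figure D1:**
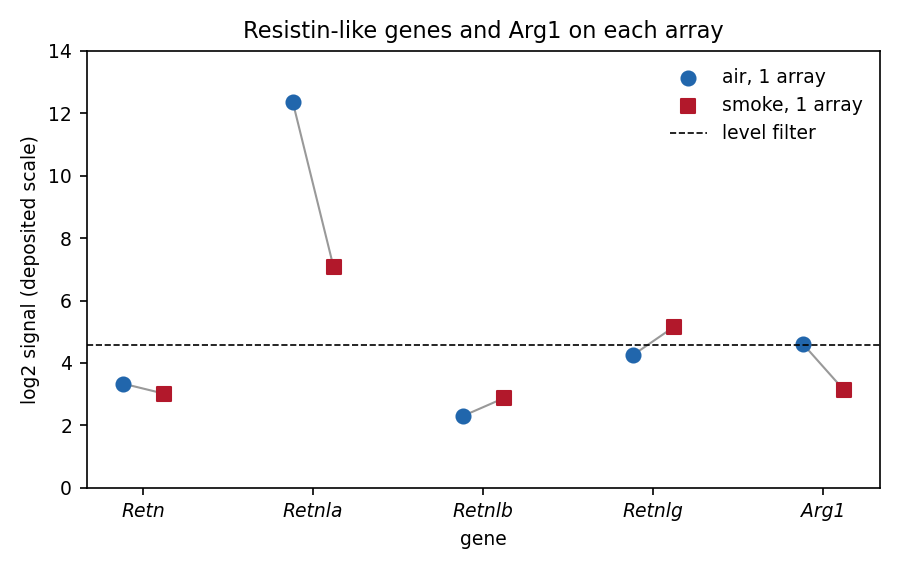
Log2 signal (deposited scale, vertical axis) of the 5 genes on the air array (blue circles) and the smoke array (red squares), 1 array per group and therefore without error bars; the dashed line is the level filter at 4.57. Retnla goes from 12.36 to 7.07, Arg1 is above the filter in air only and Retnlg in smoke only, and Retn and Retnlb lie under it on both arrays.

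The other members of the family had low signals. Retnlg was at 4.25 in air, under the filter, and at 5.15 in smoke, over it. The log2 difference was 0.90 (1.87-fold higher), and 7 of the 200 genes of like level had a difference at least as high. Retnlg was therefore counted among genes above the filter only through its smoke signal. With differences centred on genes of like level it came to 1.01, just past 2-fold.

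Retnlb had signals of 2.30 in air and 2.87 in smoke, which differed by 0.57, and Retn was at 3.34 and 3.02, a difference of -0.32. All 4 of these signals lay under the filter. For Retnlb 7 of 200 genes of like level differed at least as much upwards, with a robust SD of 0.33, and Retn was at the 35.5th percentile of its own 200, with a robust SD of 0.42. At such signals a change in a scarce transcript could not be told from background, and no direction is called for either gene.

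Arg1 was at 4.61 in air, only 0.04 above the filter, and at 3.14 in smoke, below it. The log2 difference was -1.47, a 2.77-fold lower signal, and 2 of the 200 genes of like level had a difference at least as low; their robust SD was 0.48. The size of this difference depended on how low signals were treated. It was -0.70, within 2-fold, when an offset of 16 was added on the linear scale, and -0.04 when values under the filter were raised to it. For Retnla the same settings gave -5.13 and -5.29.

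**Figure D2:**
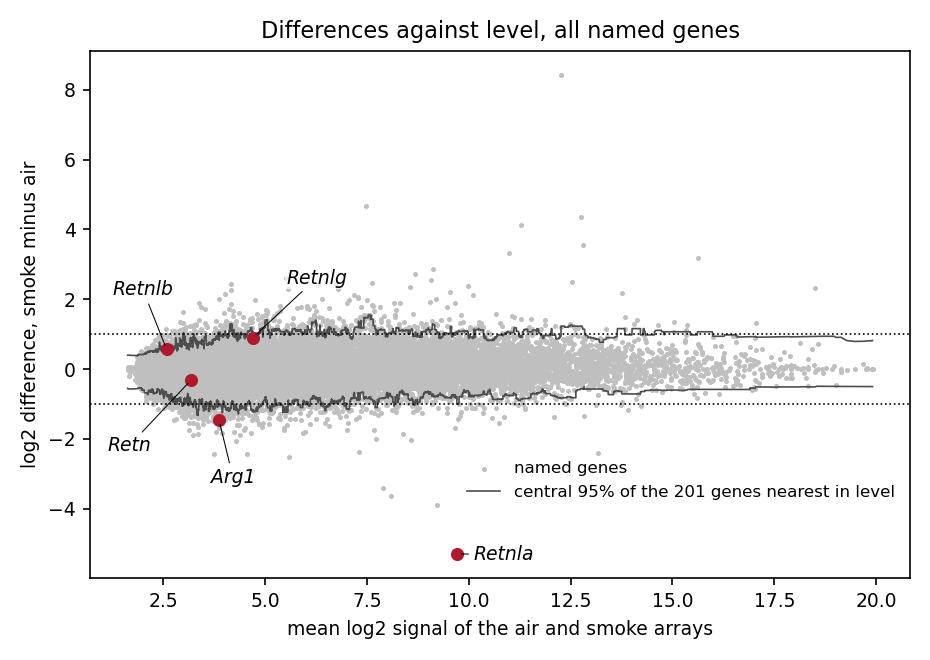
Log2 difference, smoke minus air (vertical axis), against the mean log2 signal of both arrays (horizontal axis) for all named genes below the upper limit of the scale (grey), with the 5 genes in red, the central 95% of the genes nearest in level (lines) and 2-fold (dotted). Retnla lies at -5.29, apart from every gene of its level, Arg1 lies outside the band at low signal, and Retnlg and Retnlb lie near its upper edge.

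The genes most like each member were sought by the distance between their pairs of log2 signals over the 2 arrays. For Retnla the nearest was Npas2 at a distance of 1.22 (11.16 in air, 7.27 in smoke), followed by Prelp at 2.54 (10.52 and 8.82) and Arntl at 2.57 (9.91 and 6.29). No gene therefore came close to the Retnla pair. For Arg1 the nearest genes were Gm13271, Iqgap2 and Olfr845, at distances of 0.041, 0.094 and 0.13. Retnlg had the same pair of values as Fbxl6 and was close to Fgf9 and Nme5, at 0.041 and 0.078. Retn was nearest to Ppil1, Serpina3b and Olfr1431, and Retnlb to Sarm1, Vmn1r61 and Plk5, all within 0.032. With 1 array per group such likeness rests on 2 values, and low signals hold many near matches.

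Genes beside the members did not share the Retnla difference. The 5 nearest named genes on each side of the Retnlb, Retnla and Retnlg cluster had differences between -0.88 and 0.62, with a median of 0.035, and none of the 3 above the filter passed 2-fold. These 3 were Dzip3, an RNA-binding ubiquitin ligase, at 0.35, Ift57, a ciliary transport gene, at 0.19, and Cd47, a surface signal against phagocytosis, at -0.06 (13.14 and 13.08). The 10 genes around Arg1 ran from -0.95 to 0.63, with 0 of 6 above the filter past 2-fold; the lowest was Akap7, a kinase anchoring protein, at -0.95. Around Retn, 2 of the 7 neighbours over the filter were called higher. These 2 were Stxbp2, a syntaxin-binding protein of secretion, at 11.50 in air and 12.73 in smoke, and Fcer2a, the low-affinity IgE receptor CD23, at 8.50 and 9.62. Of all 10419 genes above the filter, 3.94% were called higher and 2.48% lower, and with so few neighbours nothing particular to a locus follows from these counts.

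**Figure D3:**
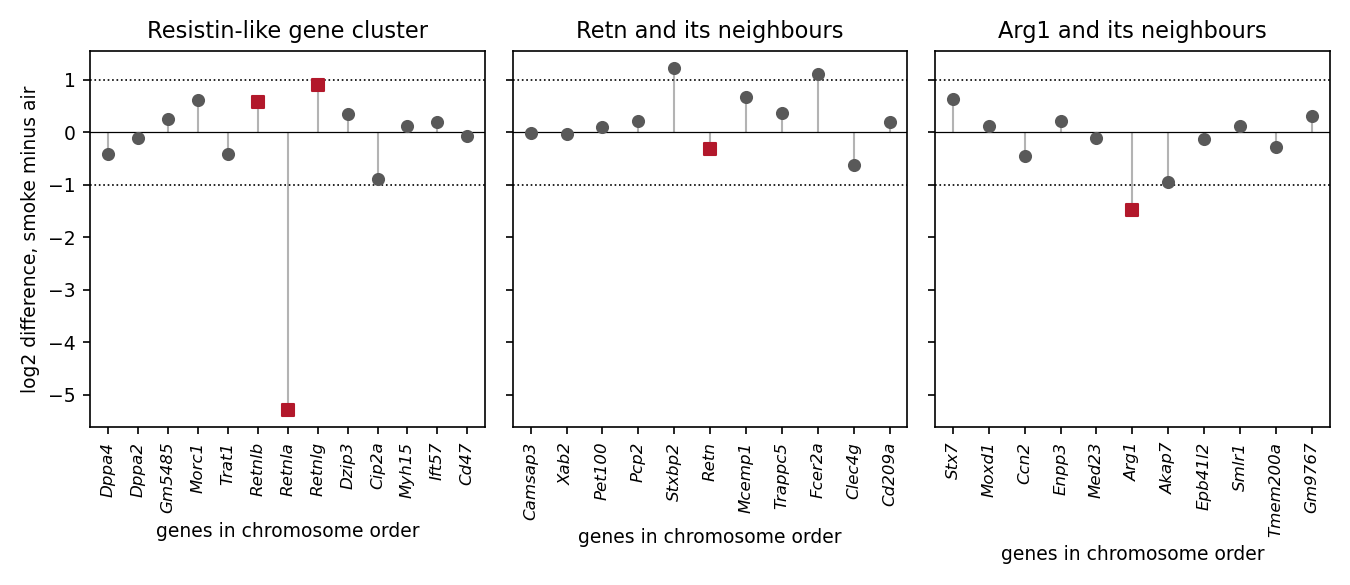
Log2 difference, smoke minus air (vertical axis), of the members (red squares) and the 5 nearest named genes on each side (grey circles), in chromosome order and not to scale; dotted lines mark 2-fold. Retnla at -5.29 stands between Retnlb at 0.57 and Retnlg at 0.90, and no other gene of the 3 loci is lower than Arg1 at -1.47.

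Type 2 cytokines and alarmins, a list that includes the inducers IL-4 and IL-13, were mostly under the filter. The arrays hold sorted cells, so these values do not tell of cytokines made by other cells of the lung. Of 7 type 2 cytokines and epithelial alarmins, Il33, an alarmin held in the nucleus, was at 14.28 and 14.39 in air and smoke. Il5, the eosinophil growth factor, was near the filter, at 4.59 and 4.50. Il4 was at 2.12 and 1.94 and Il13 at 3.91 and 4.07, both below it, as were Il9, Il25 and Tslp. None was called. The median difference of the 7 was -0.18, against -0.02 over all 19489 measurable genes, but 5 of the 7 were below the filter. The 2 above it had a median of 0.01, against 0.06 over the 10419 genes above the filter.

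The receptors of these cytokines, where above the filter, differed little between the arrays. Il4ra, the chain shared by the IL-4 and IL-13 receptors, was at 10.75 and 10.56, and its partner Il13ra1 was at 9.60 and 9.55. Of 10 receptor genes measured, 5 were above the filter and all 5 were within 2-fold; the largest difference among them was that of Il17ra, at -0.28. Stat6 was at 11.53 and 11.79. Among 15 measured genes of signalling and transcription, 13 were above the filter. Of these, 11 were within 2-fold, 1 was called lower and 1 was called higher, beside 2.48% lower and 3.94% higher over all genes.

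The 2 called genes of that list lay close to the threshold. Cebpd, a C/EBP family factor, was at 9.21 and 10.23 (a difference of 1.02), and Irs2, an adaptor of the insulin and IL-4 receptors, was at 14.76 and 13.69, a difference of -1.07. Cebpb was at 5.63 and 5.68 and Cebpa at 13.03 and 12.70. Cebpa, Cebpb and Cebpd, the only C/EBP genes in the list, thus differed by -0.33 to 1.02, and the list's median was 0.10. Hif1a, a hypoxia factor of the same list, was at 12.93 and 12.84.

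Other genes that IL-4 and IL-13 induce went in both directions. Of 28 measured, 13 were above the filter. Of these, 3 were at least 2-fold lower, 2 at least 2-fold higher and 8 within 2-fold. Over all genes above the filter, 2.48% were lower and 3.94% higher. The list was drawn up with earlier results of these data known, so its counts are not to be read against those shares. The median was -0.10 over the 28, of which 15 were below the filter, and -0.13 over the 13 above it. Chil3 (YM1), a chitinase-like protein of alveolar macrophages, was at 11.27 and 9.87, a difference of -1.40. Clca1 was at 6.13 in air and under the filter in smoke, at 3.22, a difference of -2.91 that was -1.76 with the offset. Postn, the matrix protein periostin, was at 5.27 and 4.19, a difference of -1.08 that was -0.67 with the offset.

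The genes of this group that were higher were Fcer2a, by 1.12, and Slc26a4, the anion exchanger pendrin, at 10.37 and 11.37, at 2-fold and at 0.99 with the offset. Mrc1, the macrophage mannose receptor, was at 8.82 and 8.59. Chia1, the acidic chitinase, was at 11.79 and 11.74. Muc5ac, the mucin of goblet cells, was below the filter at 2.53 and 2.42. Among these inducible genes the lowest difference was that of Clca1. Retnla was the lowest of all genes above the filter, so no listed gene above it could have reached the Retnla difference.

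Arginine genes other than Arg1 were measured for 28 of 33 listed. Arg2, the mitochondrial arginase, had signals of 9.64 and 10.95 in air and smoke, differing by 1.31 (2.48-fold higher), well above the filter on both arrays and 1.29 with the offset. Slc7a7, a subunit of a basic amino acid exporter, was at 9.30 and 8.14, and Ddah2, which breaks down methylated arginine, was at 6.88 and 5.84; their differences were -1.16 and -1.04, and that of Ddah2 was -0.87 with the offset. The remaining 15 of 18 genes above the filter were within 2-fold. Over all genes above the filter, 2.48% were called lower and 3.94% higher. Odc1, which turns ornithine into putrescine, was at 8.95 and 9.30, and Nos2, the inducible nitric oxide synthase that competes for arginine, was below the filter at 3.63 and 3.08.

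Genes of reported receptors, binding partners or targets of resistin and RELM proteins were above the filter in 4 of 5 cases, and all 4 were within 2-fold. Cap1, a cyclase-associated protein, was at 13.12 and 13.24, and Tlr4, the endotoxin receptor, was at 10.45 and 10.03. Insr, the insulin receptor, had the largest difference of the 4, at 0.68 (12.88 and 13.56). Over the 6 lists together 93 of 105 genes were measured and 55 were above the filter, of which 6 (10.9%) were at least 2-fold lower and 4 (7.27%) at least 2-fold higher, beside 2.48% and 3.94% of all genes. These lists were drawn up with earlier results of these data known, and nothing particular to them follows from these shares.

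**Figure D4:**
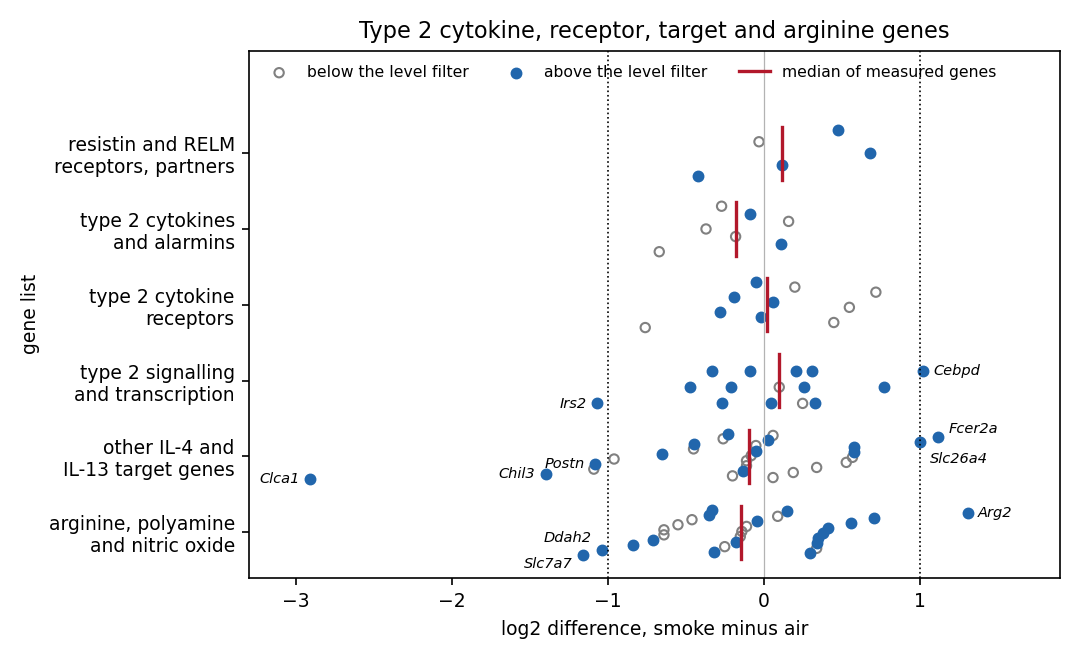
Log2 difference, smoke minus air (horizontal axis), of each measured gene of the 6 lists (rows; vertical scatter within a row has no meaning), filled where above the level filter and open where below, with list medians in red, 2-fold dotted and called genes named. Clca1 at -2.91 and Arg2 at 1.31 are the outermost called genes, and all list medians lie between -0.18 and 0.12.

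The sorted cells carried the markers of alveolar type 2 cells. Of 10 such markers, 5, among them Sftpc, were at the upper limit of the scale, 19.93, on both arrays, and the other 5 had a median difference of 0.04 with none past 2-fold. At the limit a difference cannot show, and the other 5 were close under it, at 17.75 to 19.91 in air. Equal type 2 cell content of the samples therefore does not follow from these markers. Markers of cell types that can also make the members were read beside them, since in a bulk sample fewer cells of a type and less RNA per cell cannot be told apart. For alveolar macrophages, which can make Retnla and Arg1, 5 of 10 measured markers were above the filter, and their summed signal was 11.68 in air and 10.71 in smoke on the log2 scale. Chil3 made up most of that sum, and without it, a choice made after its value was seen, the sum was 9.65 and 9.52. The defining markers Siglecf (3.67 and 2.43) and Marco (3.92 and 4.30) were below the filter on both arrays. The part of these cells in the Retnla and Arg1 differences was not tested.

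Of 11 neutrophil markers measured, Retnlg among them, 6 were above the filter. Of these, 1 was called higher and 5 were within 2-fold, beside 3.94% called higher over all genes above the filter. Over the 11 the median difference was 0.49, and over the 10 other than Retnlg it was 0.39, with 8 above 0 and 2 below. Their summed signal without Retnlg was 9.16 in air and 9.65 in smoke on the log2 scale. The called marker was Il1r2, a decoy receptor (4.49 and 5.61). It was above the filter in smoke only, and its difference of 1.12 was 0.75, within 2-fold, with the offset. S100a8 and S100a9, among the most abundant neutrophil proteins, differed by 0.28 and -0.19. The part of neutrophils in the Retnlg value was not tested.

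All 8 eosinophil markers were below the filter on both arrays, and Epx and Prg2, which define that cell, were at 2.45 and 3.16 in air and 2.65 and 2.18 in smoke. Adipocyte markers other than Retn had a median of -0.31 over 8 genes, and the defining genes Adipoq and Lep were below the filter on both arrays, like Retn. Club and goblet markers had a median of -0.33. Of 6 above the filter, 2 were past 2-fold, both lower. These were Scgb3a1, a secretoglobin, at 6.85 and 5.02, and Clca1, already counted among the IL-4 and IL-13 targets. Scgb1a1, the main club cell product, was at the top of the scale in both samples. In the mast cell and basophil list (median -0.07) Cpa3, a mast cell protease, was at 3.59 and 4.98. It was called only through its smoke signal and was within 2-fold, at 0.76, with the offset. Kit, the only other marker of this list above the filter, went the other way, at 10.41 and 9.62, within 2-fold. The other proteases were below the filter. Endothelial markers had the lowest median of the 13 lists, -0.61. All 10 were above the filter, with Cldn5 and Eng past 2-fold, both lower, and 8 within 2-fold. Monocytes and interstitial macrophages had a median of 0.18, with Cd14 higher by 1.06. For fibroblasts it was -0.14, with Col1a1 at -1.18 and Pdgfrb at 6.09 and 5.09. For dendritic cells it was -0.18, with H2-DMb2 higher by 1.20. The median was 0.06 for type 2 lymphocytes, with none called, and 0.02 for other lymphocytes, with Cd3d at 1.03. Among genes above the filter, 3 had differences above 0 and 2 below for monocytes and interstitial macrophages, and 4 and 6 for fibroblasts. The same counts were 2 and 1 for dendritic cells, 2 and 0 for type 2 lymphocytes, and 2 and 3 for other lymphocytes. With the offset Col1a1, Pdgfrb and Cd3d came to -0.89, -0.75 and 0.54, all within 2-fold, and Cd3d was above the filter in smoke only. Over all 10419 genes above the filter, 2.48% were called lower and 3.94% higher. With so few markers in each list, nothing particular to a cell type follows from these counts.

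**Figure D5:**
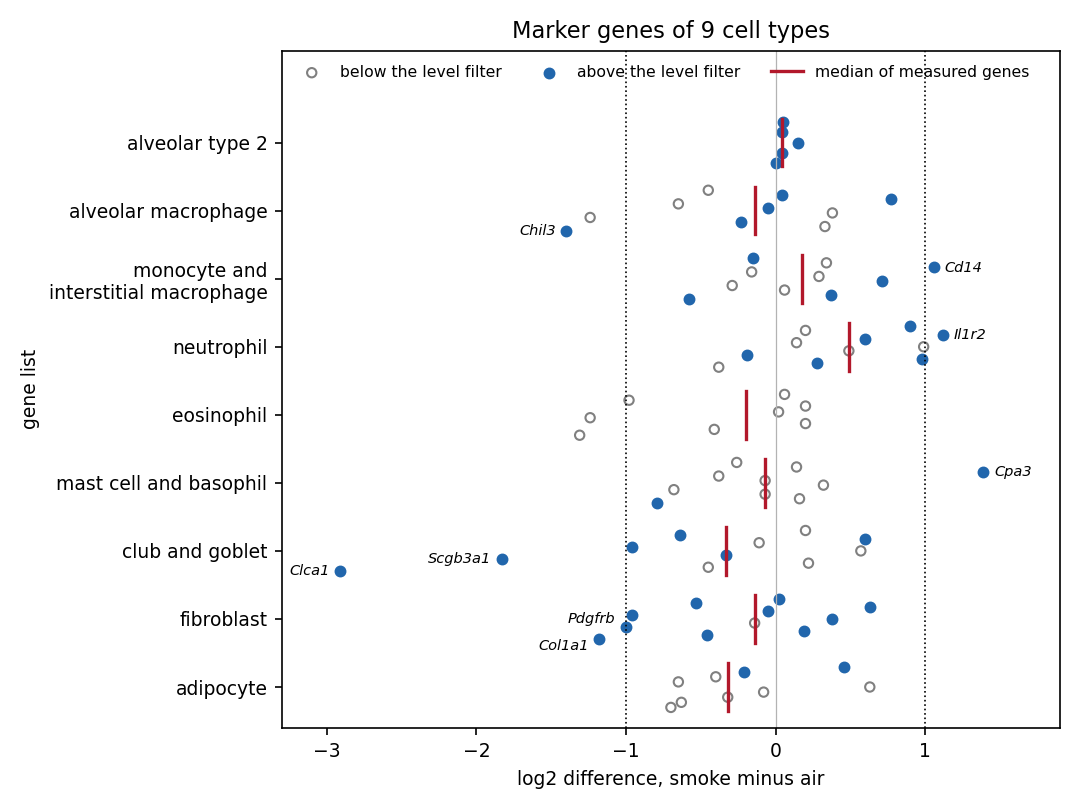
Log2 difference, smoke minus air (horizontal axis), of marker genes of 9 cell types (rows; vertical scatter within a row has no meaning), filled where above the level filter and open where below, with medians in red, 2-fold dotted and called genes named; genes at the upper limit are left out. The eosinophil row holds open points only, the neutrophil median lies at 0.49 and the alveolar type 2 median at 0.04.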

How the data were processed

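The authors deposited 1 value per probe and array, taken here as log2 signal from its range of 1.55 to 19.93 with 2 decimals; no label states the scale or the normalization between arrays. Array medians were 4.61 for air and 4.53 for smoke, so scale and centring stay unknown and the direction follows from the labels. The tool was Transcriptome Analysis Console, per the submitters' processing notes, with its version, and the build, not given in the sources used here. For names, the platform annotation named 1 gene for 19572 of 22206 probes and left 2634 unnamed; the 55 genes with several probes were averaged. All 19505 genes matched RefSeq by Entrez number.

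A gene was called when its log2 difference reached 1 in size (2-fold) and its brighter array reached 4.57; 16 genes at the upper limit of both were left out. With 1 array per group there is no test and no p-value, and the number of arrays limits the precision. Each member was set against the 200 genes nearest in mean level. Named genes are the members, their 3 nearest genes, the genes next to Retnla in the order of differences, called list members or the largest difference where none was called, and 12 fixed pathway genes; others were named after their values were seen. The members and lists were chosen with earlier results of these data known. Promoters came from RefSeq (GRCm38.p6) and were aligned with Biopython 1.88; the protein comparison that had been planned was not made and is not analysed here. The calling and matching steps were tested on simulated data. Alternatives covered normalization, centring, low signals, filters, thresholds and the number of genes of like level.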

Additional observations from a re-analysis of the deposited data

How the results depend on the processing

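With 1 array per group nothing could be left out, and no spread between replicates was at hand, so the robust SD of genes of like level was used to judge whether a member's difference moved. No paired analysis was possible because each group holds 1 array. Of 20 differences of the 5 members under 4 other settings, 16 moved by less than that SD, 4 moved by more and 0 turned their sign past a call. Retnla ran from -5.47 to -5.13. The offset of 16 gave 0.16 for Retnlb and -0.70 for Arg1, and raising low values to the median gave 0 and -0.04. All 15 percentiles among other sets of like genes stayed within 5 points. Of the 5 members, 2 were called; the count was 1, Retnla alone, with the offset, with low values raised, with the filter on the mean of both arrays or at the 75th percentile, and at 3-fold. Retnlg was also called higher when centred by level and at 1.5-fold. Over all genes the counts of higher calls were 243 with the offset, 212 with the filter at the 75th percentile, 1514 at 1.5-fold and 66 at 3-fold. Lower calls numbered 102 with the offset, 165 with low values raised, 407 without a filter, 74 at the 75th percentile, 958 at 1.5-fold and 35 at 3-fold. The list of resistin and RELM receptors and partners had 1 call at 1.5-fold. The signalling list had 1 under quantile normalization, 1 when centred by level and 0 at 3-fold. The IL-4 and IL-13 target list had 3 when centred, 3 with the offset, 3 at the 75th percentile and 1 at 3-fold, and the arginine list had 6 at 1.5-fold and 0 at 3-fold. Fewer genes tested or another threshold sets the filter and fold counts by construction; for the other settings the cause was not tested. Signals near or below 4.57 limit what can be said of Retn, Retnlb, Retnlg and Arg1.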

Other observations

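Genes whose promoter window holds the letters found in Retnla were counted without regard to their function. Of 514 genes above the level filter with a match to the STAT6 motif of TTC and GAA with any 4 bases between, 13 (2.53%) were at least 2-fold lower in smoke and 14 (2.72%) at least 2-fold higher, beside 2.34% and 3.98% of the 8473 genes above the filter that have a window. Of 888 genes with a match to TTGCNNAA, 27 (3.04%) were lower and 41 (4.62%) higher, and of 55 genes with both, 2 were lower and 3 higher, with a median difference of -0.01. These counts include Retnla, and no test was made.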
